A study of Mus musculus with 24 samples.

Results

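Squamous and basal keratinocyte genes were followed in mouse lung through 6 members, of 12393 genes on the array. The squamous members were Krt4, Krt13 and Krtdap, and the basal members were Krt5, Krt14 and Krt15. They were taken by gene symbol, with every probe set annotated to them, over all 24 arrays. The 22690 probe sets of the Affymetrix Mouse 430A array include 10 annotated to these 6 genes, of which 9 carry a single gene symbol. A probe set is a group of short oligonucleotides against 1 transcript. The 10th, 1427841_at, is annotated to both Krt17 and Krt14 and was used for neither.

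The study compared lung RNA of male mice aged 8 weeks, with 2 arrays for each of 12 kinds of mice and no treatment in any group. The groups were 9 recombinant inbred (RI) strains, BXH2, BXH4, BXH6, BXH7, BXH8, BXH9, BXH10, BXH14 and BXH19, then the hybrid BXHF1 (F1), and the inbred progenitors C3H/HeJ (C3) and C57BL/6J (B6). An RI strain was inbred from a cross of the progenitors and carries a set mosaic of their genomes. Whether the 2 arrays of a kind stand for 2 animals is not stated in the labels, so p-values cover the spread between these arrays alone, and that spread may be technical. Whole lung is a mixture, and in bulk RNA fewer cells of a type cannot be told apart from less RNA per cell.

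Keratins are the intermediate filament proteins of epithelia and assemble as pairs of a type II and a type I chain. Krt5 (type II) and Krt14 (type I) form the pair of basal cells, the progenitor layer of stratified epithelia and of the tracheal and bronchial lining, and Krt15 is a further type I keratin of basal cells. Krt4 (type II) and Krt13 (type I) form the pair that replaces them in the layers above, in non-cornified squamous epithelium such as that of the oesophagus. Krtdap, keratinocyte differentiation associated protein, is not a keratin but a small secreted protein of differentiating keratinocytes. The alveoli and small airways of a normal mouse lung are lined by simple epithelium, whose keratins are Krt7, Krt8, Krt18 and Krt19.

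The members lie on 3 chromosomes. Krt13, Krt15 and Krt14 belong to the type I cluster on chromosome 11, where no protein-coding gene separates Krt13 from Krt15 and 3 separate Krt13 from Krt14. Krt5 and Krt4 lie in the type II cluster on chromosome 15 with 7 protein-coding genes between them, and Krtdap lies on chromosome 7. RefSeq promoter sequences (build GRCm38.p6) were matched for 4 of the 6 members, Krtdap, Krt13, Krt14 and Krt5, and not for Krt4 and Krt15. The table gives 5 windows for these 4 genes, 2 of them for Krt13. The 250 bases before the annotated start are shown, 5′ to 3′ in the direction of transcription, for 2 squamous members and 1 basal member whose signals are set side by side here. Capitals mark matches to TGANTCA (the AP-1 motif) and CACCC, each on either strand, and to the TATA-like letters ATAAA on the transcribed strand between 40 and 15 bases before the start.
Krtdap, chr7:30787655-30787904, plus strand: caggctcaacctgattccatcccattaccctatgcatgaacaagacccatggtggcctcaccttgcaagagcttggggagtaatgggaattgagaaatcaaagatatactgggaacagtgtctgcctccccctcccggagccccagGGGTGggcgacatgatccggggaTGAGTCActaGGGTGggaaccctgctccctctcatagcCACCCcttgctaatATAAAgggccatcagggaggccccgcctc
Krt13, chr11:100121567-100121816, minus strand: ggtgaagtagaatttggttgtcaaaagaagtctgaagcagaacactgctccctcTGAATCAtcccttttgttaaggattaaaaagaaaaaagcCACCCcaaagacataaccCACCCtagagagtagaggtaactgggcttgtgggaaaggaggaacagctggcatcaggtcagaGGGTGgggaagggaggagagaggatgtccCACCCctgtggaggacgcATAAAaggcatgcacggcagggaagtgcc
Krt5, chr15:101712906-101713155, minus strand: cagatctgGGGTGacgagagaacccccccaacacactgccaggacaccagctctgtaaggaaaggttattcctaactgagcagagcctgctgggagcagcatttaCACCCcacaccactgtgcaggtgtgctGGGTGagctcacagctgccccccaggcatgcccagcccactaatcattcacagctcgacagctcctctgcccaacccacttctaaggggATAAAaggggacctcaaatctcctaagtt
The Krtdap window holds 1 AP-1 match, 81 bases before the start, and 3 CACCC matches. The Krt13 window shown holds 1 AP-1 match, 196 bases before the start, and 4 CACCC matches. The Krt5 window holds 3 CACCC matches and no match to the AP-1 letters. These 3 windows have ATAAA starting 29 bases before the start. The second Krt13 window, not shown (chr11:100120578-100120827, minus strand), holds 2 AP-1 matches and 1 CACCC match. The Krt14 window, not shown (chr11:100206031-100206280, minus strand), holds 1 CACCC match and no AP-1 match. Neither of these has ATAAA at that distance. Among 32851 promoter windows of the same length, 6.75% hold the AP-1 letters, 52.0% hold CACCC and 4.25% hold ATAAA at that distance. These matches describe the letters only.

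The deposited values are signals, 1 linear intensity per probe set and array in arbitrary units. With 2 percent of values trimmed at each end, the mean was 500.1 units on every array and medians ranged between 239 and 269.6. The RNA was lung RNA by its markers: Sftpc, a surfactant protein of alveolar type 2 cells, had 9579 to 20160.1 units and Scgb1a1, the secretoglobin of club cells, had 11223 to 18168 units over the arrays. The 3′ to 5′ ratio of the control probe sets, a sign of RNA quality, ranged between 0.80 and 1.13 for Gapdh and between 1.07 and 1.55 for Actb. Differences are on the scale of log2(signal + 16), which understates the change of dim genes. No detection calls were used, so whether a dim signal lies above background cannot be told, and the number of arrays limits the precision.

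Krt4 was either bright or dim, often within 1 strain. Among RI strains, Krt4 had 584 and 3787 units in BXH2, 1622 and 6689 units in BXH8, and 310.2 and 3225 units in BXH9 (replicates 1 and 2). It had 2254 and 30.1 units in BXH4, 1756 and 28.8 units in BXH10, 607 and 30.3 units in BXH14, and 2618 and 33.4 units in BXH19. In these last 4 strains 1 array was bright and the other was not.

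BXH6 had 22.0 and 30.7 units of Krt4 and BXH7 had 22.1 and 25.4 units, so both of these strains were dim on both arrays. The hybrid had 2181 and 4659 units, C3 had 22.6 and 571 units, and B6 had 6185 and 2773 units. No array lay between 33.4 and 310.2 units, 15 arrays lay above that gap and 9 below it. Both arrays lay above it in 5 kinds of mice (BXH2, BXH8, BXH9, F1 and B6), 1 of the 2 in 5 (BXH4, BXH10, BXH14, BXH19 and C3) and neither in 2 (BXH6 and BXH7).

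Krt13, the type I partner of Krt4, followed the same arrays. Its probe set 1422454_at had 539.5 and 2675 units in BXH2, 1481 and 3675 units in BXH8, and 519 and 2083 units in BXH9. It had 976 and 8.3 units in BXH4, 852 and 127 units in BXH10, 509 and 17.6 units in BXH14, and 1347 and 51.8 units in BXH19. As for Krt4, replicate 1 was the brighter array in each of these last 4 strains.

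Krt13 was dim on both arrays of BXH6, at 27.6 and 43.7 units, and had 263 and 67.7 units in BXH7. F1 had 1042 and 2757 units, C3 had 34.3 and 497 units, and B6 had 3636 and 1228 units. The second Krt13 probe set, 1437344_x_at, ranged between 3.8 and 417.5 units, with its highest value on the same array, BXH8 replicate 2. The correlation of both Krt13 probe sets over the 24 arrays was 0.84 (Pearson r), a description over arrays that share strains.

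Krtdap had 398 and 1116 units in BXH2, 792 and 1876 units in BXH8, and 213 and 1045 units in BXH9. It had 506 and 13.8 units in BXH4, 633 and 121 units in BXH10, 243 and 8.7 units in BXH14, and 446 and 18.0 units in BXH19. Again replicate 1 was the brighter array in these last 4 strains.

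Krtdap had 26.2 and 13.4 units in BXH6 and 107 and 53.4 units in BXH7. F1 had 513 and 1154 units, C3 had 10.4 and 231 units, and B6 had 1646 and 674 units. The 15 arrays with the highest Krt4 were also the 15 with the highest Krt13 and the 15 with the highest Krtdap, so the 3 squamous members picked out the same arrays.

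**Figure D1:**
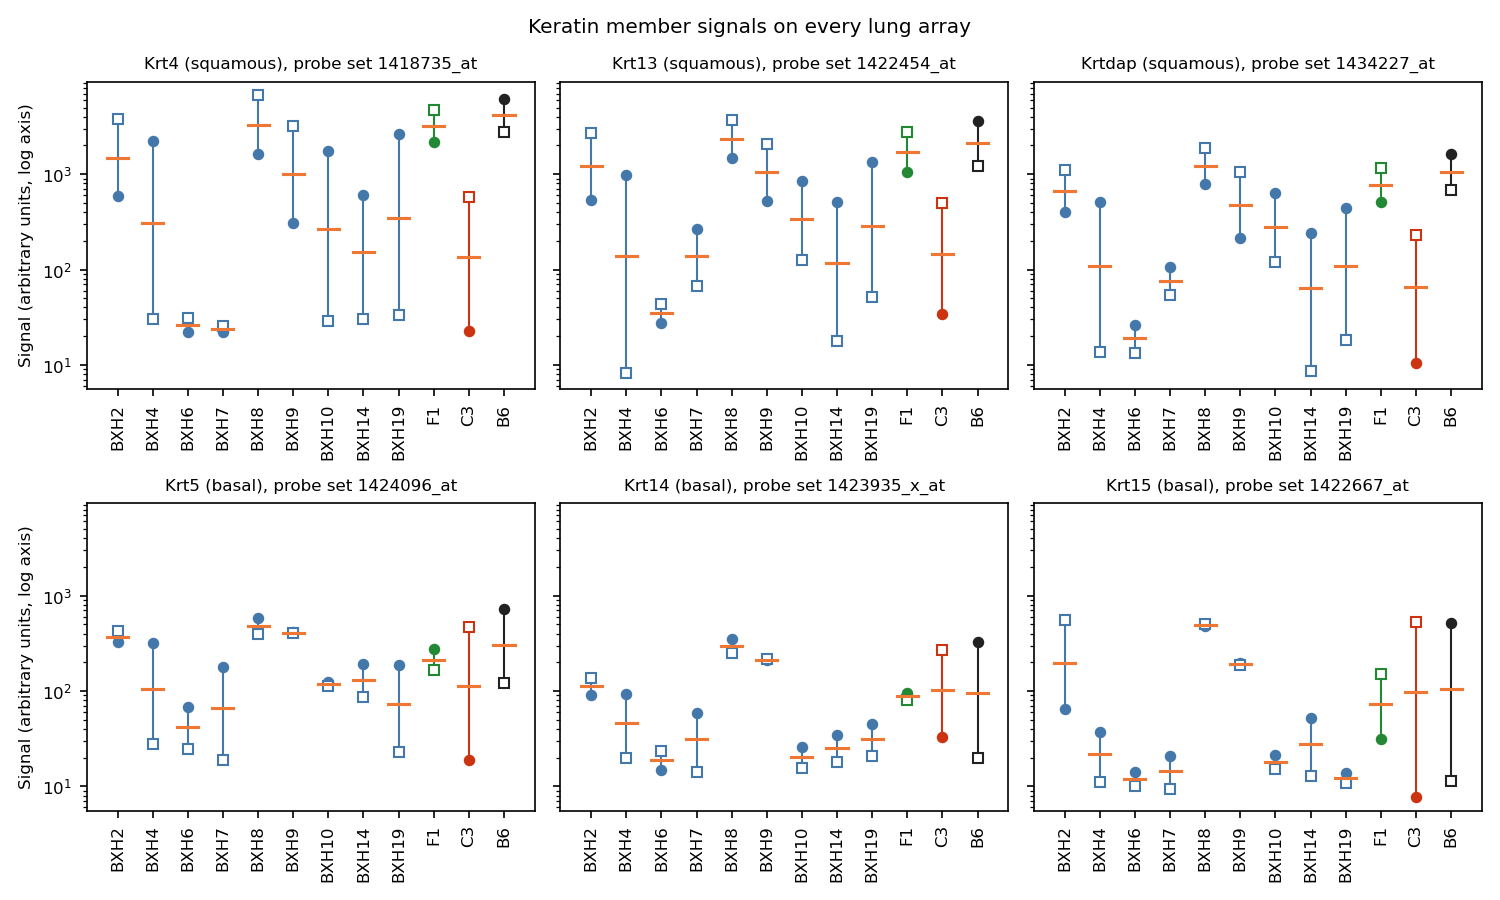
Signal of each member (log axis, arbitrary units) on all 24 arrays by strain, with RI strains in blue, F1 in green, C3 in red and B6 in black. Filled circles are replicate 1, open squares are replicate 2, and the orange bar is the strain mean taken on the log2(signal + 16) scale. Krt4 has no array between 33.4 and 310.2 units, and replicates of BXH4, BXH10, BXH14, BXH19 and C3 fall on opposite sides of that gap.

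Among the basal members, Krt5 was bright in the same 3 RI strains on both arrays. It had 324 and 425 units in BXH2, 587 and 392 units in BXH8, and 412.5 and 408 units in BXH9. The other RI strains lay lower on at least 1 array: Krt5 had 317 and 27.9 units in BXH4, 68.0 and 24.6 units in BXH6, 179 and 19.0 units in BXH7, and 125 and 112 units in BXH10. It had 192 and 87.3 units in BXH14 and 187 and 23.0 units in BXH19. F1 had 276 and 164.5 units, C3 had 18.8 and 468 units, and B6 had 722 and 122 units, so the arrays of C3 and B6 overlapped.

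Krt14 was read from probe set 1423935_x_at, a choice made after the values were seen. The probe set 1460347_at followed it over the 24 arrays (r = 0.95), whereas 1455573_at, with 57.2 to 124.6 units, did not (r = 0.36) and stayed within 2.2-fold over all arrays. By 1423935_x_at, Krt14 had 91.8 and 138 units in BXH2, 352 and 248 units in BXH8, and 209.6 and 218 units in BXH9. It had 92.4 and 20.0 units in BXH4, 14.8 and 23.2 units in BXH6, and 58.3 and 14 units in BXH7.

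Krt14 remained below 50 units on both arrays of BXH10 (26.0 and 15.7 units), BXH14 (34.8 and 17.9 units) and BXH19 (45.6 and 20.8 units). F1 had 95.7 and 80.6 units, C3 had 32.7 and 267 units, and B6 had 328.5 and 19.9 units. In C3 replicate 2 was the brighter array and in B6 it was replicate 1.

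Krt15 had 64.9 and 555 units in BXH2, 477 and 502 units in BXH8, and 196 and 185 units in BXH9. It lay between 9.3 and 51.5 units on all arrays of BXH4, BXH6, BXH7, BXH10, BXH14 and BXH19, with the highest of these, 51.5 units, on BXH14 replicate 1. F1 had 31.4 and 153 units, C3 had 7.8 and 529.9 units, and B6 had 521 and 11.4 units. Krt15 thus spanned nearly its whole range within C3 and within B6.

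The basal members did not pick out exactly the arrays of the squamous members. Of the 15 arrays with the highest Krt4, 14 were among the 15 highest of Krt5, 13 among those of Krt14 and 13 among those of Krt15. B6 replicate 2 had 2773 units of Krt4 but 19.9 units of Krt14 and 11.4 units of Krt15. BXH19 replicate 1 had 2618 units of Krt4 with 13.8 units of Krt15, and BXH10 replicate 1 had 1756 units of Krt4 with 21.5 units of Krt15. C3 replicate 2 went the other way, with the second highest Krt15 of all arrays at 529.9 units and 571 units of Krt4, among the lower of the 15 bright arrays.

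Strain means were ordered from BXH8 down to BXH6 for Krt13, Krtdap, Krt5, Krt14 and Krt15, and from B6 down to BXH7 for Krt4. The log2 range of strain means was 6.71 for Krt4, 5.53 for Krt13, 5.13 for Krtdap, 3.09 for Krt5, 3.16 for Krt14 and 4.17 for Krt15. Neighbours in that order were counted as differing if their arrays did not overlap and their means differed by at least the larger of their SDs. By that rule 11 of 11 neighbouring pairs did not differ for Krt4, Krt13, Krtdap, Krt5 and Krt15. For Krt14 9 of 11 did not, and the 2 that did were BXH8 over BXH9 and BXH9 over BXH2.

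The spread between arrays of a strain was wide for the members, Krt14 by 1423935_x_at included but not by 1455573_at. The within-strain SD on the log2 scale was 2.47 for Krt4, 2.04 for Krt13, 1.71 for Krtdap, 1.35 for Krt5, 0.98 for Krt14 by 1423935_x_at and 1.49 for Krt15, against a median of 0.23 over 20380 probe sets with 1 symbol. Only 2 of those probe sets had a larger SD than Krt4, 9 than Krt13, 10 than Krtdap, 22 than Krt5, 77 than Krt14 and 16 than Krt15. By 1455573_at the SD of Krt14 was 0.21, with 12109 probe sets above it, and the largest gap between arrays of a strain was 0.59 on the log2 scale.

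Differences between strains were tested with limma, a linear model fitted over all genes, with Benjamini-Hochberg adjustment and calls at adjusted p below 0.05. Each gene was represented by its brightest probe set, and 8280 genes with a geometric mean signal above 168.8 were tested. The squamous members passed that filter and the basal members did not. Between the 12 kinds of mice, limma's moderated F test called 10.5% of genes and 0 of 3 squamous members. All 3 had an unadjusted p below 0.05, as did 2120 of the 8280 genes tested. The adjusted p was 0.106 for Krtdap, 0.144 for Krt4 and 0.169 for Krt13, and Krtdap passed at 0.0493 when BXH4 replicate 1 was left out. Between the 9 RI strains limma called 9.32% of genes and 0 of 3 members. The adjusted p-values were 0.154 for Krtdap, 0.229 for Krt13 and 0.234 for Krt4. Of the 3, only Krtdap had an unadjusted p below 0.05, beside 2062 of the 8280 genes.

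All 9 probe sets of the members were tested in a fit of every probe set with no filter, added after the data were seen. It called 5.41% of 20380 probe sets between the 12 kinds of mice and 0 of the 9. Of the 9, 5 had an unadjusted p below 0.05, beside 3972 of the 20380. The lowest adjusted p was 0.0592, for Krt13 by 1437344_x_at. Krt14 stood at 0.157 by 1423935_x_at, 0.254 by 1460347_at and 0.563 by 1455573_at. Between the 9 RI strains this fit called 5.34% of probe sets and 0 of the 9. Of the 9, 5 had an unadjusted p below 0.05, beside 4002 of the 20380. Adjusted p-values were 0.0981 for Krt13 by 1437344_x_at and 0.171 for Krt15. For Krt14 they were 0.0999 by 1423935_x_at, 0.18 by 1460347_at and 0.425 by 1455573_at. Leaving out B6 replicate 1 or 2 brought Krt14 by 1423935_x_at past the threshold over the 12 kinds of mice. Its log2 range of strain means was then 3.16 and 3.31. Krt13 by 1437344_x_at passed at 0.02 without BXH2 replicate 1, 0.0252 without BXH2 replicate 2 and 0.0396 without B6 replicate 2.

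The RI strains descend from C3 and B6, and these progenitors were compared directly. Both C3 arrays lay below both B6 arrays for Krt4, Krt13 and Krtdap, an arrangement found in 17.7% of all genes tested. The log2 difference of C3 minus B6 was -4.79 for Krt4 (SE 2.02, limma adjusted p = 0.419), -3.73 for Krt13 (SE 1.66, adjusted p = 0.467) and -3.73 for Krtdap (SE 1.40, adjusted p = 0.304). Limma called 1.67% of genes in this comparison and 0 of the 3 members. All 3 had an unadjusted p below 0.05, as did 773 of the 8280 genes tested. The median difference of the 3 members was -3.73, beside 0.00 over all genes tested. The size rested on single arrays: Krt4 stood at -2.83 without C3 replicate 1 and at -6.75 without C3 replicate 2.

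Krt5 differed by -1.30 between C3 and B6 in the fit of every probe set. That fit called 1.16% of probe sets and 0 of the 9 of the members. Of the 9, 4 had an unadjusted p below 0.05, beside 1585 of 20380 probe sets. Without C3 replicate 1 the Krt5 difference turned to 0.60. For Krt14 and Krt15 the arrays of C3 and B6 overlapped. The progenitor arrays thus did not overlap for the squamous members and overlapped for the basal members. Of all genes tested, 17.7% had both C3 arrays below both B6 arrays and 19% had both above. The squamous members also varied together, so they are not separate readings. The difference between these contrasts was not tested.

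The hybrid was set against the mean of its progenitors. F1 minus midparent was 2.02 for Krt4 (SE 1.75), 1.55 for Krt13 (SE 1.44) and 1.42 for Krtdap (SE 1.21), with limma adjusted p-values of 0.804, 0.822 and 0.803. Limma called 0.0242% of genes and 0 of the 3 members. In the fit of every probe set it called 0.0736% of probe sets and 0 of the 9 of the members. In both fits no member had an unadjusted p below 0.05, beside 676 of 8280 genes and 1312 of 20380 probe sets. Both F1 arrays of Krt4 lay above both C3 arrays and within or below the values of B6.

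Each RI strain was also set against the mean of the other 8. Of 27 tests of the squamous members limma called 0, with 7 at an unadjusted p below 0.05 and a lowest adjusted p of 0.237. Limma gave 868 (BXH8) to 1916 (BXH4) of 8280 genes an unadjusted p below 0.05 in each strain. Of all genes it called 1.17% in BXH2, 7.63% in BXH4, 2.08% in BXH9, 1.47% in BXH10, 1.23% in BXH14 and 1.22% in BXH19. In BXH8, where limma called 1.39% of genes, the log2 difference was 3.74 for Krt4 (SE 1.51), 3.16 for Krt13 (SE 1.24) and 2.96 for Krtdap (SE 1.05). In BXH6, where it called 1.94%, the difference was -3.35 for Krt4, -3.05 for Krt13 and -2.82 for Krtdap, with the same standard errors. BXH7, where it called 1.29%, had -3.44 for Krt4 but -1.27 for Krt13 and -1.25 for Krtdap.

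In the fit of every probe set, limma called 0 of 81 such tests, with 15 at an unadjusted p below 0.05. Limma gave 1715 (BXH7) to 3727 (BXH4) of 20380 probe sets an unadjusted p below 0.05 in each strain. It called 0.785% of probe sets in BXH2, 4.18% in BXH4, 0.922% in BXH6, 0.741% in BXH7, 0.775% in BXH10, 0.859% in BXH14 and 0.638% in BXH19. The lowest adjusted p was 0.0542, for Krt13 by 1437344_x_at in BXH8, where the log2 difference was 2.92 (SE 0.67) and 0.761% of probe sets were called. In BXH8 Krt15 stood at 3.26 (SE 0.95, adjusted p = 0.164) and Krt14 by 1423935_x_at at 2.33 (SE 0.64, adjusted p = 0.132). By 1460347_at Krt14 stood at 1.74 (adjusted p = 0.279) and by 1455573_at at 0.37 (adjusted p = 0.618). In BXH9, where 1.21% of probe sets were called, Krt14 by 1423935_x_at stood at 1.83 (SE 0.64, adjusted p = 0.18). There it stood at 1.65 by 1460347_at (adjusted p = 0.199) and at -0.22 by 1455573_at (adjusted p = 0.688).

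**Figure D2:**
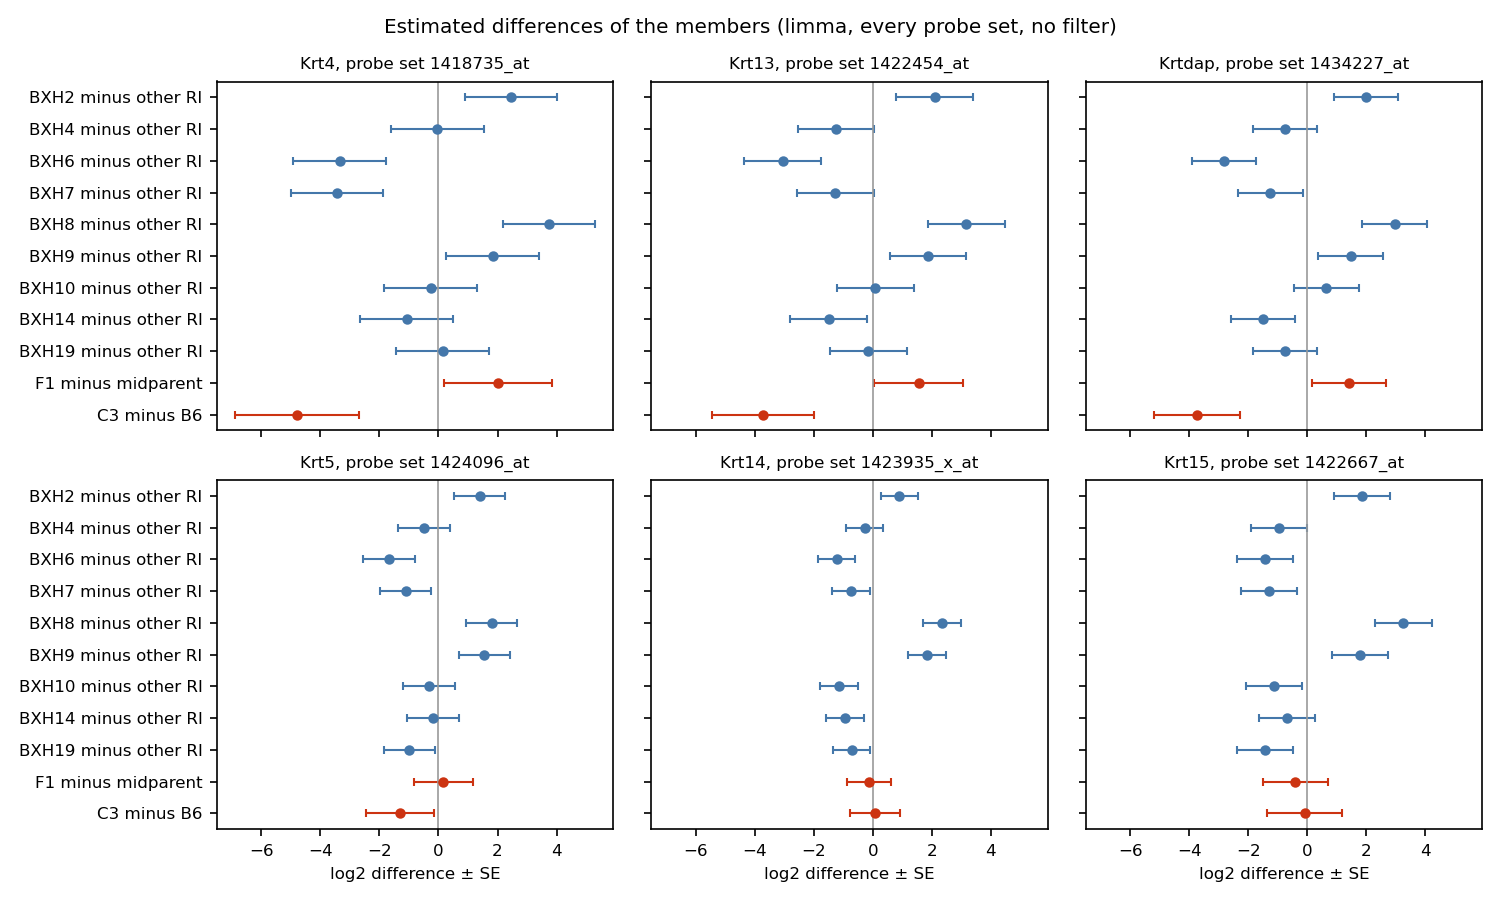
Estimated log2 differences (points) with standard errors (bars) for the members in the fit of every probe set, for every RI strain against the other 8 (blue), then F1 minus midparent and C3 minus B6 (red). BXH8 lies to the right of 0 and BXH6 to the left for all 6 members, and the C3 minus B6 point lies at -4.79 for Krt4 and near 0 for Krt14 and Krt15.

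Members varied together over the 12 strain means, with the exception of Krt14 by 1 of its probe sets. Krt13 and Krtdap had a Pearson r of 0.99 (Spearman's rho 0.98), Krt4 and Krt13 had 0.95 (rho 0.92), and Krt4 and Krtdap had 0.94 (rho 0.92), each with a permutation p of 1e-05 for r, the smallest the permutations can give. The adjusted p for r was 5e-05 for each, over the 15 pairs of members with Krt14 by 1455573_at, its brightest probe set. Krt5 and Krt15 had r = 0.92 (rho 0.93, adjusted permutation p = 7.5e-05). Between kinds, r of Krt5 or Krt15 with squamous members ran from 0.74 for Krt4 and Krt15 (rho 0.69, adjusted permutation p = 0.0112) to 0.90 for Krt13 and Krt5 (rho 0.81, adjusted permutation p = 0.0007). The 10 pairs without Krt14 all had an adjusted permutation p of 0.0112 or less for r and of 0.0235 or less for rho. The members were chosen with earlier results of these data known, and they also moved together between arrays of a strain. These p-values therefore do not separate variation between strains from variation between arrays. The permutations also treat the 12 kinds of mice as exchangeable, although the RI strains and F1 descend from C3 and B6.

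For Krt14 the relation depended on the probe set. By 1455573_at its r was 0.20 to 0.28 with the other 5 members, and none of these 5 pairs passed (adjusted permutation p of 0.442 or more for r and 0.407 or more for rho). By 1423935_x_at, chosen after its values were seen and so given with no p, r was 0.96 with Krt15, 0.88 with Krt5, and 0.72, 0.77 and 0.73 with Krt4, Krt13 and Krtdap. With Krt14 by 1423935_x_at, and without the 2 strains farthest from the median of the first member, r was 0.91 to 0.98 within squamous members, 0.78 to 0.93 within basal members and 0.64 to 0.86 between kinds. The basal mean used here takes Krt14 by 1423935_x_at. A basal mean with 1455573_at in its place had r = 0.99 with it over the 24 arrays.

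The members, with Krt14 by 1423935_x_at, also moved together within strains, where the genotype is shared. For the 12 differences of replicate 1 minus replicate 2, r was taken about 0, with no mean subtracted. It was 0.95 to 0.99 between squamous members and 0.69 to 0.88 between basal members. Between kinds it was 0.50 to 0.75. These values are descriptions over arrays of the same strains. The brighter array for Krt13 was the brighter array for Krtdap in 11 of 12 strains. Over all pairs of members this count ran from 7 (Krt4 and Krt5) to 11, with 8 for Krt14 and Krt15.

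The gene most like the squamous members was Crct1, cysteine rich C-terminal 1, a gene of the epidermal differentiation complex, with r = 0.98 over the 24 arrays against the mean log2 of Krt4, Krt13 and Krtdap. It ranged between 29.1 and 1615 units. It was followed by Rptn, repetin, a cornified envelope protein (0.95), Mt4, the metallothionein of stratified squamous epithelium (0.93), Tgm3, a transglutaminase that cross-links the cornified envelope (0.92), Asprv1, a protease of the upper epidermis (0.92), and Lor, loricrin (0.92). The 8 most like genes among those tested ended with Acta1, skeletal alpha actin, and Myh1, a fast skeletal myosin, at 0.90 each. Crct1 was also the most like gene of Krt4 (0.97), Krt13 (0.95) and Krtdap (0.97) taken singly.

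The basal mean was most like Mt4 (r = 0.88) and Perp, a desmosomal protein of stratified epithelia (0.87). The next 6 were skeletal muscle genes: Tnnt3 (0.84), Myh8 (0.83), Myh1 (0.83), Myl1 (0.82), Tnni2 (0.82) and Ckm (0.82). Taken singly, Krt5 was most like Mt4 (0.89), Krt14 most like Mt4 (0.84) and Krt15 most like Perp (0.86). Among genes below the filter, named after their values were seen, Trp63, the transcription factor that maintains basal cells, had r = 0.92 with the basal mean by 1 probe set but 0.12 and 0.26 by its other 2. Lgals7, galectin-7 of stratified epithelium, had 0.92 with the basal mean, and Lce3a and Sprr3, cornified envelope genes, had 0.98 and 0.91 with the squamous mean. Not all such genes below the filter did so. Ivl and Tgm1, also squamous differentiation genes, had -0.13 and 0.57 with the squamous mean, Ivl at 6.8 units or less. Itgb4, a basal cell gene, had -0.11 with the basal mean.

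**Figure D3:**
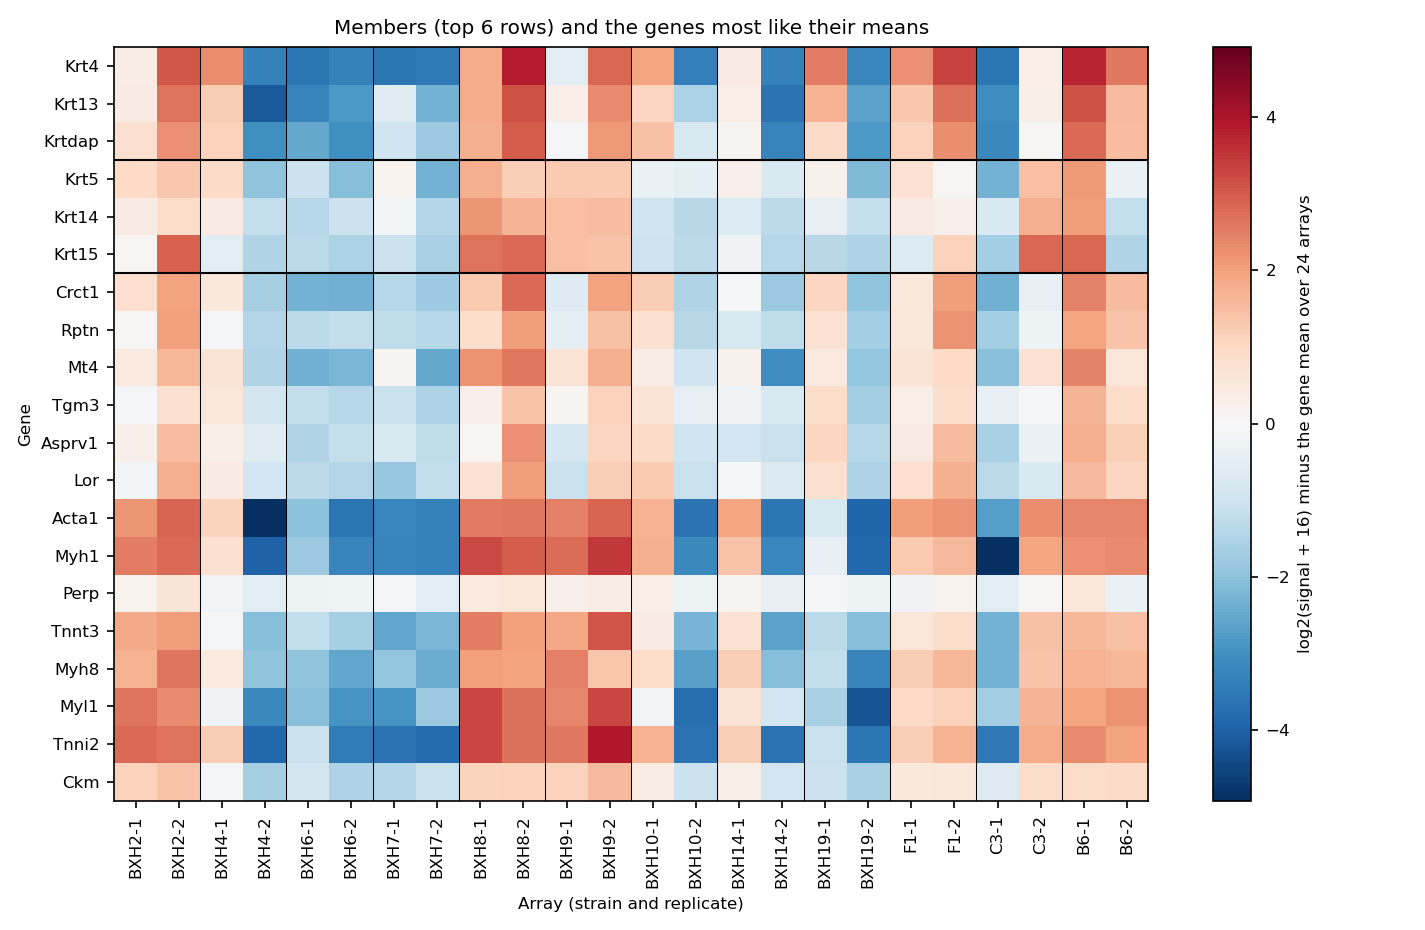
Deviation of log2(signal + 16) from the gene's mean over the 24 arrays (red above, blue below) for the 6 members and the genes most like their means, with arrays in columns by strain and replicate. The columns of BXH4 replicate 2, BXH6, BXH7, BXH10 replicate 2, BXH14 replicate 2, BXH19 replicate 2 and C3 replicate 1 are blue in nearly every row, squamous and muscle genes included.

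Squamous differentiation genes were examined as a list of 50, of which 42 were on the array and 22 were tested. Their mean per array correlated with the squamous mean at r = 0.93 and with the basal mean at 0.83 over the 24 arrays. Limma called 5 of the 22 between the 12 kinds of mice (22.7%, beside 10.5% of all genes): Scel, sciellin of the cornified envelope (adjusted p = 0.0033), Krt23 (0.00341), Slurp1, a secreted keratinocyte protein (0.0159), Dmkn, dermokine (0.0243), and S100a14 (0.0345). Of the 5, Scel, Krt23 and Slurp1 had r of 0.08, -0.19 and 0.17 with the squamous mean, S100a14 had 0.54 (0.67 with the basal mean) and Dmkn, the neighbour of Krtdap on chromosome 7, had 0.84. Of all 22 tested genes, 12 had r over 0.5 with the squamous mean. Crct1 and Rptn, among the genes most like the squamous members, had adjusted p-values of 0.0592 and 0.0761. In C3 minus B6, 0 of the 22 were called and the median difference was -0.50.

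Skeletal muscle genes moved with the members. The mean of 15 tested genes of a list of 19 correlated with the squamous mean at r = 0.86 and with the basal mean at 0.84 over the 24 arrays, and its 15 highest arrays were the 15 highest of Krt4. In C3 the muscle list mean was 7.07 and 10.27 on the log2 scale, against 10.43 and 10.41 in B6, and over all arrays it ranged between 6.74 in BXH19 replicate 2 and 11.49 in BXH9 replicate 2. Acta1 had 24.1 to 8772 units and Myh1 3.5 to 6556 units, and whether their dimmest signals lie above background cannot be told. Of the 15 genes, 14 had r over 0.5 with the squamous mean, and 10 were called between the 12 kinds of mice (66.7%, beside 10.5% of all genes), among them Mb, myoglobin, and Ckm, muscle creatine kinase. The part of skeletal muscle tissue in the signals of the members was not tested.

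The other marker lists had r between -0.25 and 0.49 with the squamous or the basal mean. Over the 24 arrays the list means correlated with the squamous mean at r = 0.13 for club cells, 0.21 for ciliated cells, 0.04 and -0.23 for alveolar type 2 and type 1 cells, 0.14 for cartilage and 0.05 for airway glands and goblet cells. With the basal mean the same lists had 0.05, 0.16, -0.03 and -0.25, 0.04 and 0.34. With the squamous mean the values were 0.12 for smooth muscle, 0.16 for desmosomes, -0.13 for basal cell and hemidesmosome genes, 0.35 for adipose tissue, 0.29 for mesothelium, -0.09 for thymus and -0.05 for thyroid, the last 2 resting on 1 tested gene each. With the basal mean they were 0.22, 0.43, -0.19, 0.38, 0.49, 0.14 and 0.06 in the same order, so of these lists mesothelium and desmosomes had the highest r with the basal members. The 3′ to 5′ ratios of Gapdh and Actb had r of -0.33 and -0.29 with the squamous mean and -0.04 and 0.02 with the basal mean. The basal cell list mean covers its 10 tested genes, among them Itga6, Lama3 and Lamb3, and 0 of the 10 were called between the 12 kinds of mice, beside 10.5% of all genes. Some probe sets of that list outside the fit, named after their values were seen, had higher r with the basal mean, and others did not. Itgb4 had -0.11, Krt17 had -0.13 and 0.26, and Ngfr had 0.04, 0.06 and 0.27. Col17a1, a hemidesmosomal collagen below the filter, had 0.72, and Dst, dystonin of the hemidesmosome, had 0.86 by 1 dimmer probe set but 0.46, -0.29 and -0.36 by its others.

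**Figure D4:**
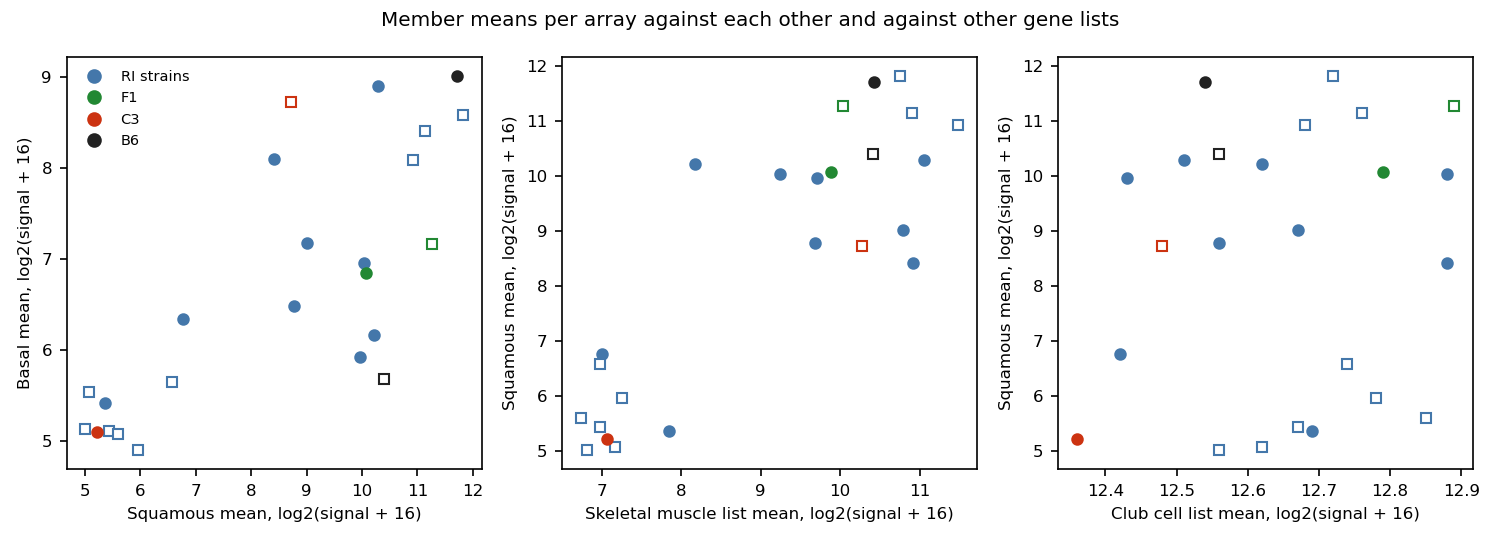
Mean log2(signal + 16) of the basal members against that of the squamous members (left), 1 point per array. The squamous mean is set against the skeletal muscle list mean (middle) and the club cell list mean (right). Filled circles are replicate 1 and open squares replicate 2, with RI strains in blue, F1 in green, C3 in red and B6 in black. The squamous mean follows the muscle list mean (r = 0.86) and not the club cell list mean (r = 0.13).

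Of 35 other keratin genes on the array, 0 had r over 0.7 with the squamous or the basal mean over the 24 arrays. Krt32, a hair keratin, came nearest, with 0.49 and 0.62. Krt6a, Krt16 and Krt17, keratins of activated keratinocytes, had 0.23, 0.19 and -0.05 with the squamous mean, and Krt1 and Krt10, the cornifying pair, had -0.40 and -0.17. Krt1 ranged between 63.2 and 164.7 units and Krt10 between 88.4 and 210.5 units.

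Of the 35, 11 were tested and 5 were called between the 12 kinds of mice, beside 10.5% of all genes: Krt79 (adjusted p = 6.07e-08), Krt19 (5.66e-06), Krt18 (8.47e-05), Krt23 (0.00341) and Krt7 (0.0281). Krt19, Krt18 and Krt7 are keratins of simple epithelium, whose 4 tested genes had a list mean at r = -0.21 with the squamous and -0.04 with the basal mean. Krt19 was the only tested gene of the lists examined here that was called between the progenitors, 0.98 higher in C3 than in B6 (SE 0.15, limma adjusted p = 0.0013). Krt19, which lies between Krt15 and Krt14 on chromosome 11, thus differed between the progenitors beyond the spread between arrays. The members near it did not pass. Krt13 had a larger estimate with a wider error (-3.73, SE 1.66), and Krt14 and Krt15 were tested only in the fit of every probe set. Whether Krt19 differs from these members in this contrast was not tested.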

How the data were processed

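Lung RNA of 12 kinds of mice was measured on 24 arrays, and the sample titles gave group and replicate. Per the labels' protocols, Trizol-extracted RNA was primed with T7-oligo(dT) and amplified to biotin-labelled cRNA. The deposited values are linear intensities, and the authors' scaling gives a trimmed mean of 500.1 on every array. Not given in the sources used here is which software computed them. The platform annotation named the probe sets (20380 with 1 symbol, 691 with several, 1555 with none and 64 controls).

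Each gene took its probe set of highest mean log2(signal + 16), and the top 60 percent of probe sets were kept, leaving 8280 genes. limma 3.58.1 in R 4.3.3 (lmFit, eBayes with a mean-variance trend, 12 residual degrees of freedom) was fitted to all 24 arrays with no covariate, after being tested on simulated data. Correlations used 100000 permutations. The members and gene lists were chosen with earlier results of these data known. Genes named beside the members are up to 8 of smallest p per list, list genes called in C3 minus B6, the 8 tested genes most like each mean, 3 per member, and other keratins called between the 12 strains, with exceptions said in the text. Other settings tried were an offset of 1 or 64, quantile normalization or median centring, the top 40 percent of probe sets or no filter, the mean per gene or every probe set, no trend, a replicate block, only the C3 and B6 arrays, and leaving out each array. The fit of every probe set without a filter, and the count of non-overlapping progenitor arrays, were added after seeing the data.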

Additional observations from a re-analysis of the deposited data

How the results depend on the processing

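In the fit of 8280 genes the number of members called was 0 in every comparison under the other settings except 0 to 1 between the 12 strains when single arrays were left out, the 1 being Krtdap without BXH4 replicate 1. Krtdap did not pass the filter with the top 40 percent, nor Krt13 with the mean of probe sets, and neither has a value there. Of 1013 pairs of a member result and an alternative, 992 kept direction and side of the threshold, 20 passed where the reported value did not, and 1, Krt5 in C3 minus B6, reversed to 0.60 without C3 replicate 1 (-3.20 without C3 replicate 2). The 20 were Krtdap (above), 6 for Krt14 without B6 replicate 1 or 2 and 13 for Krt13 by 1437344_x_at. For that Krt13 probe set they were an offset of 1 (12 strains, adjusted p = 0.0463), an offset of 64 (BXH8, adjusted p = 0.05 after rounding), and fits without BXH2 replicate 1 or 2, BXH9 replicate 2, BXH10 replicate 1, or B6 replicate 1 or 2 (adjusted p from 0.0171 to 0.0494). For Krt14 the adjusted p ranged between 0.0229 and 0.0379. The cause was not tested. C3 minus B6 ranged between -6.75 and -2.83 for Krt4, -5.41 and -2.05 for Krt13 and -5.34 and -2.11 for Krtdap. With Krt14 by the probe set chosen after its values were seen, the lowest r among the 15 pairs was 0.72. It was 0.72, 0.70 and 0.72 with offsets of 1 and 64 and quantile normalization. With Krt14 by its brightest probe set the lowest r was 0.2, for Krt13 and Krt14. The replicate numbers were not taken to pair the samples in the main fit. Deviations of same-numbered arrays correlated at -0.299 to 0.344 over 66 strain pairs (median -0.00366), with 22 of them over 0.1. With the replicate number as a block, 0 members were called in each comparison and Krtdap stood at an adjusted p of 0.112 over the 12 strains. Over all genes, C3 minus B6 had 138 calls, but 209 with every probe set, 237 with no filter as well, 71 with only the C3 and B6 arrays, and 75, 78 and 76 without C3 replicate 2, B6 replicate 1 and B6 replicate 2. F1 minus midparent had 2 calls and 0 to 16 under the alternatives. BXH8 had 115 calls, but 75 with the top 40 percent and 20 and 42 without its replicates 1 and 2. With every probe set BXH4 had 1001 in place of 632, BXH9 285 in place of 172 and BXH14 157 in place of 102, and with no filter as well BXH2 had 160 in place of 97 and BXH14 175. Without 1 of its own arrays BXH4 had 243 or 134 calls, BXH9 23 or 81, BXH2 37 or 43, BXH6 47 or 61 in place of 161, BXH7 21 or 34 in place of 107, BXH10 45 or 61 in place of 122 and BXH19 31 or 32 in place of 101, and BXH14 had 20 without its replicate 1.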
